A study of Mus musculus with 12 samples.

Results

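Transcripts of 8 genes of the complement system were followed in cultured mouse macrophages: the 3 C1q chains C1qa, C1qb and C1qc, the central component C3, properdin (Cfp), factor B (Cfb), and the anaphylatoxin receptors C3ar1 and C5ar1. The genes were taken by symbol from a count table of 37620 gene identifiers, and all 8 were found, as ENSMUSG00000036887 (C1qa), ENSMUSG00000036905 (C1qb), ENSMUSG00000036896 (C1qc), ENSMUSG00000024164 (C3), ENSMUSG00000001128 (Cfp), ENSMUSG00000090231 (Cfb), ENSMUSG00000040552 (C3ar1) and ENSMUSG00000049130 (C5ar1). The symbols were chosen by their role in complement, with earlier measured levels and changes of these libraries in view, so the levels are a description and the p-values give only the place of each gene in a fit of all genes. Macrophages were grown from C57BL/6 mouse bone marrow as a primary culture and taken at day 7. The 12 libraries formed 4 groups of 3: hypoxia-lactate (1% oxygen, 25 mM sodium lactate), hypoxia-NaCl (1% oxygen, 25 mM NaCl), normoxia-lactate (ordinary oxygen, 25 mM sodium lactate) and normoxia-NaCl (ordinary oxygen, 25 mM NaCl, the salt control). Libraries carry the group name and the labels' number, 1 to 3. No label tells whether same-group libraries are from different mice or dishes; the p-values therefore reflect the spread between the samples alone, and that spread may be technical. The comparisons ask how low oxygen and lactate, alone and together, change the complement genes that macrophages themselves transcribe.

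Complement is a cascade of proteins that tags microbes, immune complexes and dying cells. C1q, built from equal numbers of A, B and C chains, starts the classical pathway and also bridges apoptotic cells to phagocytes. Most plasma complement proteins come from the liver, but macrophages are a main source of C1q, and they also make C3 and properdin. C3 is cleaved to C3b, which is deposited on surfaces. Factor B is the protease subunit of the alternative pathway C3 convertase, and properdin stabilises that enzyme. The small fragments C3a and C5a act on macrophages through the receptors encoded by C3ar1 and C5ar1.

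The C1q genes lie next to each other on chromosome 4, in the order C1qb, C1qc and C1qa with no other annotated gene between them. C3 and Cfb lie on chromosome 17, C3ar1 on chromosome 6, C5ar1 on chromosome 7 and Cfp on the X chromosome, and all 8 are on the minus strand. The promoters of a pair of C1q genes that varied together, of the gene whose lactate libraries all lay below its NaCl libraries and of the receptor that was highest in hypoxia libraries are shown. Each is the sequence from 250 bases before to 50 bases after the gene start in RefSeq (build GRCm38.p6), read 5′ to 3′ along the gene's minus strand. Capitals mark every match, on either strand, to the motifs searched. The positions are chr4:136886151-136886450 for C1qb, chr4:136892865-136893164 for C1qc, chrX:20931506-20931805 for Cfp and chr6:122856108-122856407 for C3ar1.
C1qb: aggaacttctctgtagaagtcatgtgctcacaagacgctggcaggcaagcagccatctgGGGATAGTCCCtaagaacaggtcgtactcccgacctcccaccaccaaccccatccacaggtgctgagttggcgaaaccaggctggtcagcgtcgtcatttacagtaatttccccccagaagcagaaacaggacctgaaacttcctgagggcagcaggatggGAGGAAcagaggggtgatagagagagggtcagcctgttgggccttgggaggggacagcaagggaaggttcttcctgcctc
C1qc: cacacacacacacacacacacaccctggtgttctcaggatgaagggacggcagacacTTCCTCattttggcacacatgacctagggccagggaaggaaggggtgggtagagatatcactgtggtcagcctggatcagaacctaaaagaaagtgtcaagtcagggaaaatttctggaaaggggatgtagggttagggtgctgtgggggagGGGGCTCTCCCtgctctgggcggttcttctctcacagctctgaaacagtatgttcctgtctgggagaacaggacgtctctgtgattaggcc
Cfp: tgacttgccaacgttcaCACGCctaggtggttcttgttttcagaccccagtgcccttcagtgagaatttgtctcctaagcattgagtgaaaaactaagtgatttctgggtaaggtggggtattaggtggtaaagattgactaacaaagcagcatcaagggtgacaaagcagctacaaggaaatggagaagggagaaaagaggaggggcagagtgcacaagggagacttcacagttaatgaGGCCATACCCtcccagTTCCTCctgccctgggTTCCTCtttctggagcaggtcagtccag
C3ar1: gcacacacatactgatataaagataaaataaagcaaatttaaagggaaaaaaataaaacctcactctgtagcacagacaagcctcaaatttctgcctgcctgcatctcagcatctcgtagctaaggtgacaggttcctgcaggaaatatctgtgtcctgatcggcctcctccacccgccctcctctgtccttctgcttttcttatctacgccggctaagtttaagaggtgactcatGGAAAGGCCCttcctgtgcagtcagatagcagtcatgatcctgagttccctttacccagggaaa
The motifs were the hypoxia response cores ACGTG and GCGTG, the kappaB letters (3 G, any 5 bases, 2 C), the interferon response letters (GAAA, any 2 bases, GAAA) and the PU.1 core GAGGAA. A hypoxia response core stood in the Cfp window, as GCGTG on the reverse strand, and in no other of the 6 member promoters in the table, which also holds C3 and C5ar1 and has none for C1qa or Cfb. Either core is found in 43.8% of 32851 promoter windows of this length. GAGGAA, found in 28.3% of windows, stood in those of C1qb, C1qc and Cfp. The kappaB letters, found in 50.8% of windows, stood in 5 of the 6 member promoters, overlapping themselves on both strands in C1qb, C1qc and C3, and were not in the C5ar1 window. The interferon response letters, found in 3.44% of windows, was in none of the 6. These matches describe the letters only.

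Gene counts summed to 22705978 to 49885085 per library, and 14616 genes, 7 of the 8 members among them, had enough counts to be tested. Levels are CPM (reads of a gene relative to library size) after TMM scaling. Library hypoxia-lactate 3 stood apart: 11437 genes reached 10 counts there, whereas 13198 to 14767 did elsewhere, and its mitochondrial share was 0.486%, against 2.04% to 4.75% elsewhere. The coefficient of variation shared by all genes was 38.2% with it and 24.3% without it, so results that rest on it are given both ways. The 8 macrophage markers (such as Adgre1, Csf1r and Cd68) summed to 33210 to 48920 CPM in every library, of which Lyz2 alone gave 22880 to 39860 CPM. Single markers were less even. In hypoxia-lactate against normoxia-NaCl, Mertk averaged 9.99 against 29.6 CPM, Fcgr1 10.8 against 22.2 CPM and Cd14 1605 against 666 CPM. The 3 hepatocyte markers, which would accompany liver-made complement, were at or near 0 (at most 0.0375 CPM in sum, with Alb and Ttr at 0 everywhere). The 8 neutrophil markers summed to 24.9 to 51.5 CPM in the 4 libraries numbered 2 and to 35.0 CPM in hypoxia-lactate 3, against 0.275 to 5.21 CPM in the other libraries. The 5 osteoclast markers, of which Calcr was at 0, summed to 288 to 695 CPM in hypoxia-lactate, 166 to 234 CPM in hypoxia-NaCl, 136 to 217 CPM in normoxia-lactate and 92.6 to 156 CPM in normoxia-NaCl. The gene Ctsk gave most of each of these sums. The 7 lymphocyte markers, with Ms4a1 and Ncr1 at 0, summed to 2.96 to 7.18 CPM in hypoxia-lactate and to 0.587 to 2.22 CPM in the other groups. Fibroblast markers summed to 29.0 to 108 CPM, dendritic cell markers to at most 5.12 CPM with Xcr1 at 0, erythroid markers to at most 1.27 CPM, and mast cell markers to at most 0.184 CPM with Mcpt4 and Ms4a2 at 0. The part of these in the results was not tested.

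By counts, complement in these macrophages amounted to C1q, the receptors, and lower levels of properdin and C3. Factor B had almost no counts, and its counts are uncertain. Compared per kilobase (kb) of exon, C1qb was the most abundant member over the 12 libraries (310 ± 150 CPM per kb, SD), followed by C3ar1 (210 ± 60.4), C5ar1 (143 ± 39.2), C1qc (127 ± 61.2), Cfp (40.5 ± 24.04), C1qa (37.7 ± 23.7), C3 (18.7 ± 8.43) and Cfb (0.0321 ± 0.0443). C5ar1 and C1qc did not differ beyond their spread, nor did Cfp and C1qa. The order of the group means changed with the condition at both ends. Cfp lay above C1qa and C3 in both NaCl groups, below C1qa and above C3 in normoxia-lactate, and below both in hypoxia-lactate. In normoxia-NaCl libraries C1qb (281 to 556 CPM per kb) lay above C3ar1 (148 to 165), whereas in hypoxia-lactate libraries C1qb (95.3 to 393) and C3ar1 (229 to 281) overlapped. C5ar1 also moved in rank, above C1qc in hypoxia-lactate, hypoxia-NaCl and normoxia-lactate and below it in normoxia-NaCl by group means, although their libraries overlapped in hypoxia-lactate, hypoxia-NaCl and normoxia-NaCl.

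**Figure D1:**
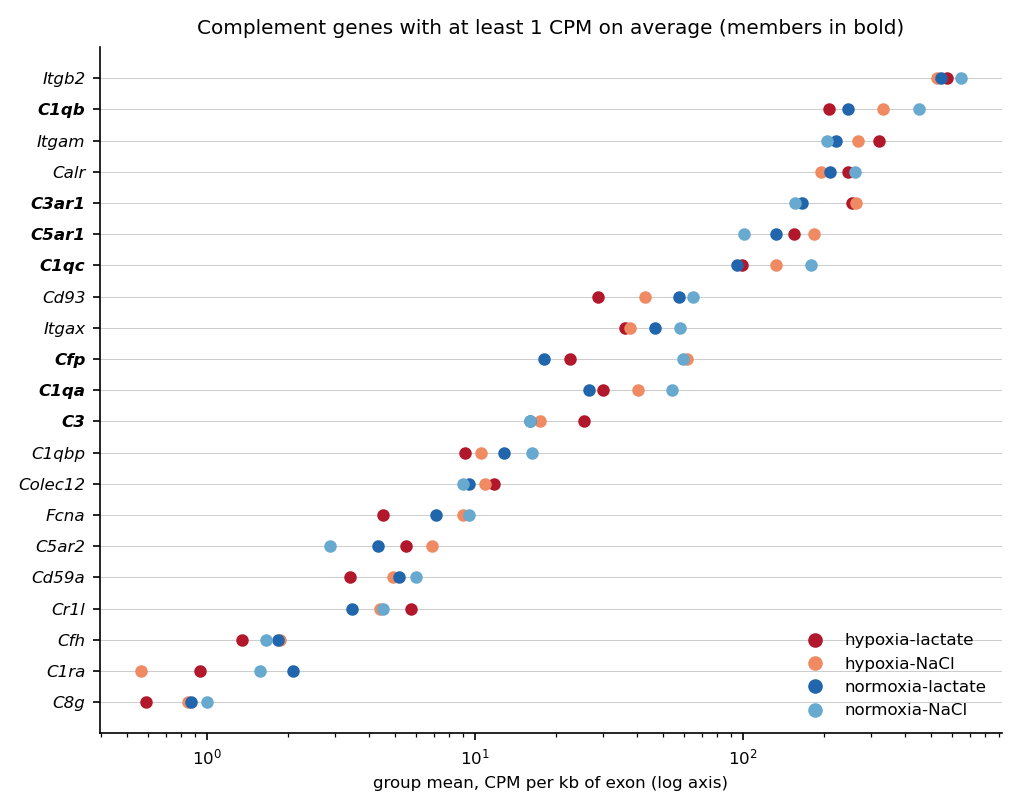
Level of each complement gene with at least 1 CPM on average, as the group mean in CPM per kilobase of exon on a log axis, with the members in bold and 1 point for each of the 4 groups. C1qb and C3ar1 head the members, Cfp has its hypoxia-lactate and normoxia-lactate points left of its hypoxia-NaCl and normoxia-NaCl points, and factor B is too low to be drawn.

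The C1q chains were lowest in 2 of the 3 hypoxia-lactate libraries, and the third stood far above those. C1qa, the A chain, had 11.9, 7.95 and 73.9 CPM in hypoxia-lactate libraries 1, 2 and 3, 33.3, 20.7 and 71.9 CPM in hypoxia-NaCl, 27.4, 27.8 and 27.5 CPM in normoxia-lactate, and 75.5, 30.7 and 62.4 CPM in normoxia-NaCl. C1qb, the B chain, had 148, 104 and 428 CPM in hypoxia-lactate, 344, 215 and 524 CPM in hypoxia-NaCl, 262, 259 and 280 CPM in normoxia-lactate, and 605, 306 and 572 CPM in normoxia-NaCl. C1qc, the C chain, had 126, 89.6 and 360 CPM in hypoxia-lactate, 228, 148 and 393 CPM in hypoxia-NaCl, 188, 174 and 188 CPM in normoxia-lactate, and 441, 213 and 385 CPM in normoxia-NaCl. For all 3 chains every normoxia-lactate library lay below every normoxia-NaCl library, and hypoxia-NaCl overlapped normoxia-NaCl. Library 2 held the lowest C1qb value of its group in all 4 groups, and the normoxia-lactate libraries were unusually even, with a coefficient of variation of 4.26% for C1qb against 33.1% to 77.6% in the other groups. In bulk libraries, fewer cells making C1q and less C1q RNA per cell cannot be told apart.

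**Figure D2:**
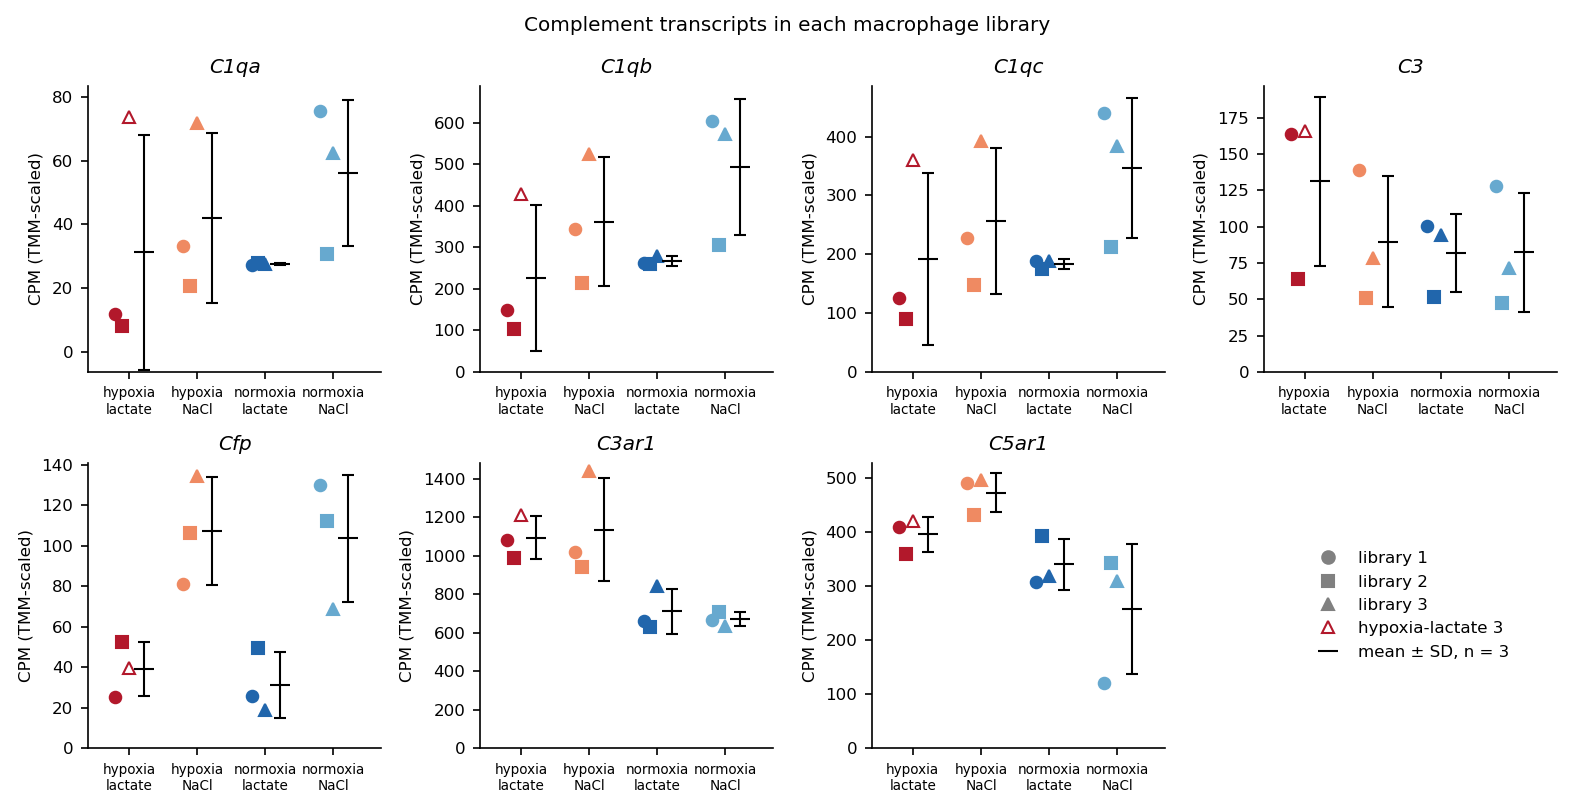
TMM-scaled CPM of the 7 tested members in each library, by group, with symbols for library numbers 1 to 3, an open triangle for hypoxia-lactate 3, and the mean ± SD of each group (n = 3) beside its points. Cfp is at 52.3 CPM or less in every lactate library and at 68.8 CPM or more in every NaCl library, C3ar1 is at 943 CPM or more in every hypoxia library and at 844 CPM or less in every normoxia library, and the C1q chains of hypoxia-lactate 3 stand far above those of hypoxia-lactate 1 and 2.

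Against normoxia-NaCl, cells under low oxygen with lactate had lower mean values of all 3 C1q chains, but with all 12 libraries no chain passed the adjusted threshold of 0.05. Log2 fold changes are given with the standard error (SE) of edgeR's fit over all libraries, 3 per group. C1qa differed by -0.85 ± 0.70 (31.2 ± 37.0 CPM in hypoxia-lactate, against 56.2 ± 23.1 CPM in normoxia-NaCl, SD), C1qb by -1.13 ± 0.47 (227 ± 176 against 494 ± 164 CPM) and C1qc by -0.85 ± 0.48 (192 ± 147 against 346 ± 119 CPM), with edgeR adjusted p of 0.521, 0.202 and 0.330. Without hypoxia-lactate 3, all 3 fell and passed the threshold, with log2 fold changes of -2.49 ± 0.48 for C1qa (adjusted p = 0.0102), -1.97 ± 0.36 for C1qb (adjusted p = 0.00797) and -1.68 ± 0.38 for C1qc (adjusted p = 0.0208). They were then 3 of 7 members called, in a fit that called 6.86% of its 15088 genes (3.26% lower), and neither remaining hypoxia-lactate library overlapped normoxia-NaCl for any chain (19.7% of genes lay below without overlap). A fit by limma-voom with library quality weights keeps hypoxia-lactate 3 but can weight libraries unequally, and the weight it received was not read out. In that fit the 3 chains were also called lower, at adjusted p of 0.00444 to 0.0187, where 7.38% of genes were called. The summed osteoclast markers, 365, 288 and 695 CPM in hypoxia-lactate 1, 2 and 3, were above every normoxia-NaCl library. Ctsk alone gave 279, 237 and 550 CPM of these sums. Acp5 averaged 54.9 CPM in hypoxia-lactate against 36.0 CPM in normoxia-NaCl, and Ocstamp, low in both, 1.08 against 1.36 CPM. These genes are not the whole of the sums. The part of these markers in the C1q result was not tested.

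Lactate alone, in ordinary oxygen, gave C1q values below those of the NaCl control in every library, but again none was called. C1qa differed by -1.03 ± 0.70, C1qb by -0.89 ± 0.47 and C1qc by -0.92 ± 0.48 on the log2 scale, each with an edgeR adjusted p of 1. Low oxygen without lactate gave -0.42 ± 0.69, -0.45 ± 0.47 and -0.43 ± 0.47 for C1qa, C1qb and C1qc, with adjusted p of 0.970 to 0.991 and overlapping groups. In hypoxia, lactate gave -0.43 ± 0.69 for C1qa, -0.67 ± 0.47 for C1qb and -0.42 ± 0.47 for C1qc, which became -2.07 ± 0.47, -1.51 ± 0.35 and -1.24 ± 0.37 without hypoxia-lactate 3 (adjusted p of 0.215 to 0.343). Low oxygen within lactate medium gave no stable direction: 0.17 ± 0.69, -0.24 ± 0.47 and 0.06 ± 0.47 for C1qa, C1qb and C1qc with all libraries, against -1.48 ± 0.46, -1.09 ± 0.35 and -0.77 ± 0.36 without hypoxia-lactate 3 (adjusted p of 0.177 to 0.365), and C1qa and C1qc were also negative under upper-quartile scaling. These comparisons share groups, so their values stand side by side and are not separate support for each other.

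Proportions between the C1q chains within a library do not depend on library scaling, and they differed between libraries. C1qc counts were 66.4% to 75.0% of C1qb counts in the 9 libraries outside hypoxia-lactate. In the hypoxia-lactate libraries they were 85.2%, 86.4% and 84.1%, above every other library, hypoxia-lactate 3 included. Per kilobase of exon this was 47.4% to 48.7% in hypoxia-lactate, against 37.4% to 42.3% elsewhere. C1qa counts were far fewer, 7.67% to 13.7% of C1qb counts in 11 libraries and 17.3% in hypoxia-lactate 3, although the proteins combine in equal numbers. The proportion was noticed in the data and has no test. Of 9909 genes with at least 5 CPM on average, C1qc was nearest to C1qb in pattern, with a root mean square difference of 0.137 in centred log2 CPM over the 12 libraries, against a median of 0.825 over all genes. Next to C1qb came Fam20c, a secretory pathway kinase (0.268), and then C1qa (0.290).

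C3 was lowest in the library numbered 2 of every group, and no comparison of conditions passed the test. It had 164, 64.2 and 166 CPM in hypoxia-lactate libraries 1, 2 and 3, 139, 51.1 and 78.1 CPM in hypoxia-NaCl, 101, 51.4 and 94.2 CPM in normoxia-lactate, and 128, 47.6 and 71.3 CPM in normoxia-NaCl. The 4 libraries numbered 2 lay between 47.6 and 64.2 CPM, against 71.3 to 166 CPM in libraries 1 and 3. The groups overlapped in every comparison, with means of 131 ± 58.1, 89.5 ± 45.1, 82.1 ± 26.8 and 82.2 ± 41.2 CPM (SD, n = 3) in hypoxia-lactate, hypoxia-NaCl, normoxia-lactate and normoxia-NaCl, and C3 was called under none of the 23 alternative settings. A pair of macrophage genes from the lists, the integrin gene Itgax (57.4 to 106 CPM in libraries 2, 185 to 392 CPM in libraries 1 and 3) and the milk fat globule gene Mfge8 (234 to 329 CPM in libraries 2, 702 to 1370 CPM in libraries 1 and 3), chosen after their values were seen, were likewise lowest in library 2 of every group. Neutrophil markers ran the other way and were high in libraries 2, as given above, and their part in the C3 values was not tested. Among the genes nearest to C3 in pattern were Lrrc32, a receptor that anchors latent TGF-beta (0.259), and Il21r, an interleukin receptor (0.266), against a median of 0.709. Without hypoxia-lactate 3 the nearest was Nedd4, a ubiquitin ligase gene (0.188), and Il21r was not among the 3 nearest.

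**Figure D3:**
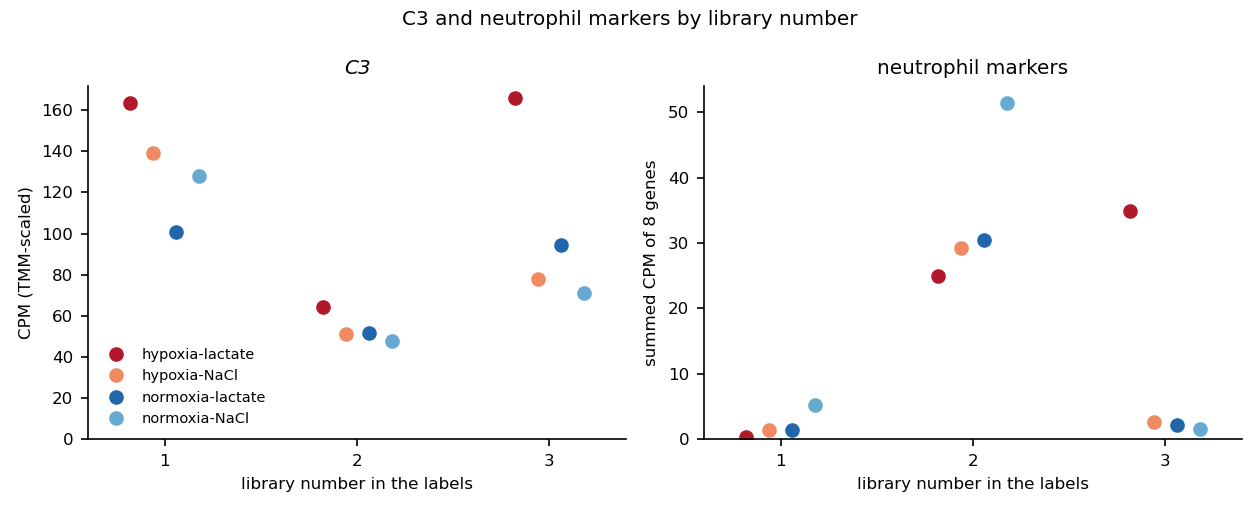
C3 (left, TMM-scaled CPM) and the sum of the 8 neutrophil markers (right, CPM) against the library number in the labels, 1 point per library coloured by group. C3 is between 47.6 and 64.2 CPM in the libraries numbered 2, below all others. The neutrophil sum is between 24.9 and 51.5 CPM in them and 35.0 CPM in hypoxia-lactate 3, where it is S100a8 alone.

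Properdin was the member that separated the media. Cfp had 25.4, 52.3 and 39.7 CPM in hypoxia-lactate libraries 1, 2 and 3 and 25.6, 49.7 and 18.8 CPM in normoxia-lactate, against 80.9, 106 and 134 CPM in hypoxia-NaCl and 130, 112 and 68.8 CPM in normoxia-NaCl. Every lactate library lay below every NaCl library, at either oxygen level. How many of all genes separate the media in this way was not counted. For lactate against NaCl, 6.16% of genes lay below without overlap in normoxia and 9.3% in hypoxia. In normoxia, lactate gave 31.4 ± 16.2 CPM against 104 ± 31.5 CPM with NaCl (SD, n = 3 each), a log2 fold change of -1.72 ± 0.39. In hypoxia, lactate gave 39.1 ± 13.5 CPM against 107 ± 26.6 CPM with NaCl, a log2 fold change of -1.45 ± 0.38. Neither passed edgeR's test over all genes (adjusted p of 1 and 0.432), nor did hypoxia-lactate against normoxia-NaCl (-1.40 ± 0.38, adjusted p = 0.0814). DESeq2 called Cfp lower for lactate in normoxia (adjusted p = 0.0482) and for hypoxia-lactate against normoxia-NaCl (adjusted p = 0.0189).

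Averaged over both oxygen levels, a contrast added after the values had been seen, lactate gave Cfp a log2 fold change of -1.59 ± 0.27 with an edgeR adjusted p of 0.0887, short of the threshold that 0.0342% of genes passed. Without hypoxia-lactate 3 the change was -1.59 ± 0.28 and passed (adjusted p = 0.0402, 0.305% of genes called). The oxygen level moved Cfp less than its spread. The difference between the lactate effects at the 2 oxygen levels was tested as the interaction and did not pass (adjusted p = 0.936). The gene nearest to Cfp in pattern was Maf, the gene of a macrophage transcription factor, at a root mean square difference of 0.517 against a median of 1.01 over all genes. A gene that did not vary would differ from Cfp by 0.930. Maf had 33.2, 40.3 and 52.8 CPM in hypoxia-lactate and 33.4, 44.7 and 31.6 CPM in normoxia-lactate, against 53.9, 56.3 and 103 CPM in hypoxia-NaCl and 83.0, 64.8 and 71.7 CPM in normoxia-NaCl. The next nearest, Ube2c (0.616) and Cdca2 (0.619), are genes of mitosis. Without hypoxia-lactate 3 Maf was again nearest (0.510), followed by Bub1 (0.571) and Hmmr (0.589), also genes of mitosis.

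Factor B, the partner of properdin in the alternative pathway convertase, was barely detected. Cfb had 0, 12 and 0 counts in hypoxia-lactate libraries 1, 2 and 3, 3, 2 and 3 counts in hypoxia-NaCl, 4, 8 and 2 counts in normoxia-lactate, and 0, 5 and 0 counts in normoxia-NaCl. It was too low to be tested, and no difference was detectable at this depth. A count of 0 allows up to 3 counts, which is 0.103 and 0.178 CPM in hypoxia-lactate libraries 1 and 3 and 0.137 and 0.0587 CPM in normoxia-NaCl libraries 1 and 3, for counting error only. The exons of Cfb overlap those of the annotated gene Gm20547, listed at 0 in every library, so reads from this locus may have been left uncounted as ambiguous and the Cfb counts are uncertain.

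The C3a receptor was higher in low oxygen, in every library with or without lactate. C3ar1 had 1082, 988 and 1211 CPM in hypoxia-lactate libraries 1, 2 and 3 and 1020, 943 and 1441 CPM in hypoxia-NaCl, against 662, 627 and 844 CPM in normoxia-lactate and 665, 709 and 635 CPM in normoxia-NaCl. Every hypoxia library lay above every normoxia library, and the share of all genes that do so was not counted. For low oxygen without and with lactate, 12.8% and 8.23% of genes lay above without overlap. Low oxygen without lactate gave 1135 ± 268 CPM against 670 ± 36.9 CPM (SD, n = 3 each), a log2 fold change of 0.76 ± 0.21 with an edgeR adjusted p of 0.339. Low oxygen with lactate gave 1094 ± 112 CPM against 711 ± 116 CPM, a log2 fold change of 0.62 ± 0.21 with an adjusted p of 0.263. Hypoxia-lactate against normoxia-NaCl gave 0.71 ± 0.21 (adjusted p = 0.0991). The labels' numbers paired the libraries in the comparison without lactate, and with the number as a block and hypoxia-lactate 3 left out C3ar1 rose by 0.73 ± 0.16 and passed there (adjusted p = 0.0234, 2.47% of genes called higher). With the block and all 12 libraries C3ar1 did not pass. In this comparison it passed under 2 of the 23 alternative settings.

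Averaged over both media, again a contrast added after the values had been seen, C3ar1 rose by 0.69 ± 0.15 and passed the threshold (edgeR adjusted p = 0.0404), in a comparison where 1.38% of genes were called and 1.12% were called higher. The call held without hypoxia-lactate 2 or hypoxia-lactate 3 and was lost when any other single library was left out, with adjusted p of 0.0158 to 0.156 over the 12 fits and log2 fold changes of 0.59 to 0.75. It was also lost under upper-quartile scaling. Genes nearest to C3ar1 in pattern were Tcp11l2 (0.127), Klhl24 (0.133), which encodes a ubiquitin ligase adaptor, and Tnfrsf23, a decoy receptor gene (0.135), against a median of 0.542. Without hypoxia-lactate 3 none of these was among the 3 nearest, which were Picalm (0.0900), Crebrf (0.0939) and Anxa2 (0.110), against a median of 0.447.

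The C5a receptor had its highest values in low oxygen without lactate, and 1 normoxia-NaCl library was low. C5ar1 had 408, 360 and 421 CPM in hypoxia-lactate and 490, 431 and 497 CPM in hypoxia-NaCl, against 307, 393 and 319 CPM in normoxia-lactate and 121, 343 and 310 CPM in normoxia-NaCl. Hypoxia-NaCl lay above all other groups, and hypoxia-lactate overlapped normoxia-lactate. Low oxygen without lactate gave a log2 fold change of 0.87 ± 0.30 (edgeR adjusted p = 0.556), and hypoxia-lactate against normoxia-NaCl gave 0.62 ± 0.30 (adjusted p = 0.264). Without normoxia-NaCl 1, the low library, and hypoxia-lactate 3, these were 0.53 ± 0.14 (adjusted p = 0.119) and 0.23 ± 0.15 (adjusted p = 0.402). In the same fit low oxygen averaged over both media raised C5ar1 by 0.35 ± 0.10 (adjusted p = 0.0496, 4.74% of genes called higher), against 0.55 ± 0.21 (adjusted p = 0.250) with all libraries. Lactate within hypoxia placed all 3 libraries below those of hypoxia-NaCl, with 396 ± 32.3 against 473 ± 36.3 CPM (SD, n = 3 each), a difference that did not pass (adjusted p = 0.744). The nearest genes in pattern were Rassf1 (0.168), Hnrnpl (0.211) and Zc3h7a (0.219), against a median of 0.651. Without hypoxia-lactate 3 they were Rassf1 (0.140), Isg20l2 (0.178) and Ahnak (0.185), against a median of 0.583.

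**Figure D4:**
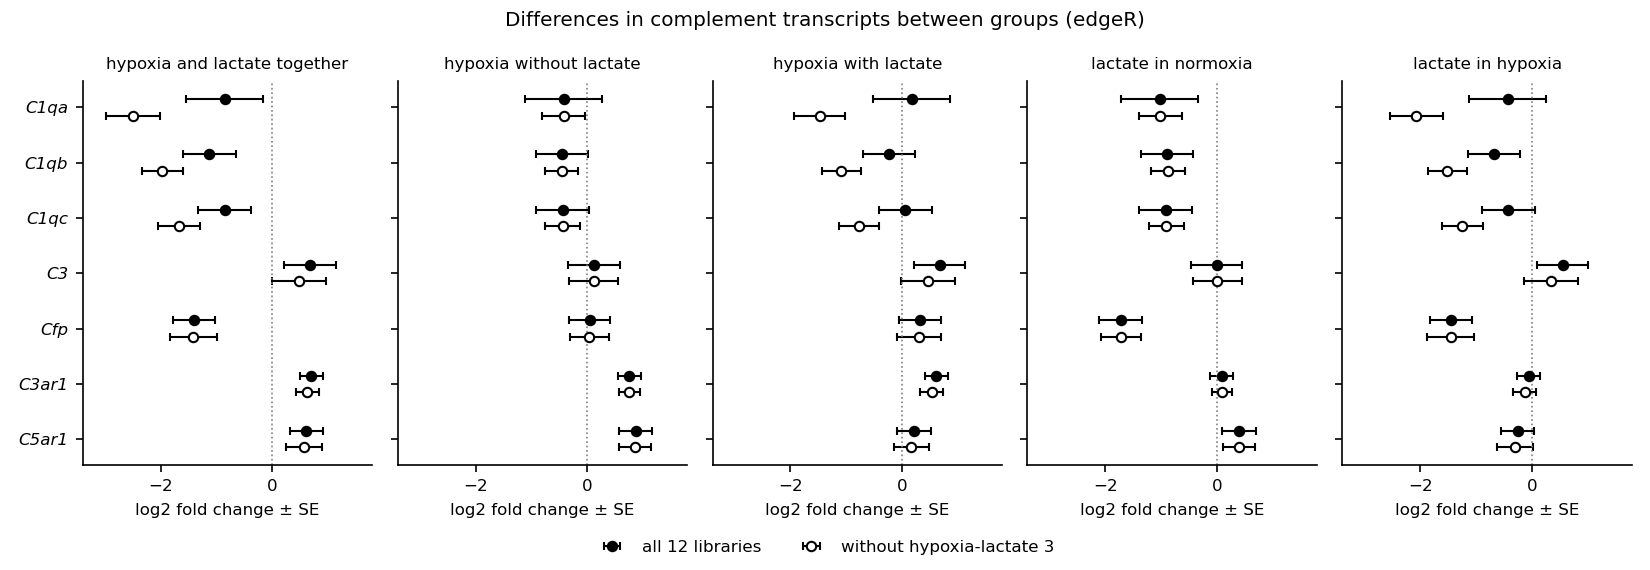
Log2 fold change ± SE of the 7 tested members in the 5 comparisons of 2 groups, with all 12 libraries (filled) and without hypoxia-lactate 3 (open), from edgeR. Cfp is near -1.4 to -1.7 in the comparisons that add lactate, C3ar1 is above 0 in those that add low oxygen, and the C1q chains shift to lower values without hypoxia-lactate 3 in each comparison that uses it.

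Counted together, 0 of 7 tested members passed edgeR's adjusted threshold in each of the 6 comparisons of the design with all 12 libraries. For hypoxia without lactate, 0.281% of genes passed, 2 members were higher at an unadjusted p under 0.05 (3.29% of genes), and 2 members, C3ar1 and C5ar1, lay above without overlap (12.8% of genes). For hypoxia with lactate, 0.226% of genes passed, and C3ar1 was the 1 member higher at an unadjusted p under 0.05 (9.3% of genes) and the 1 higher without overlap (8.23%). For lactate in normoxia, 0% of genes passed, and 4 members, the C1q chains and Cfp, lay below without overlap (6.16% of genes), of which 1, Cfp, had an unadjusted p under 0.05 (0.951%). For lactate in hypoxia, 0% of genes passed, 2 members, Cfp and C5ar1, lay below without overlap (9.3%), and 1 had an unadjusted p under 0.05 (4.08%). The C1q chains are neighbours that varied together and are not independent of each other.

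For hypoxia-lactate against normoxia-NaCl, 1.61% of genes passed. There 2 members lay above without overlap (9.39% of genes) and 1 below (11.2%), and at an unadjusted p under 0.05 there was 1 higher (11.8%) and 2 lower (8.91%). For the interaction, 0% of genes passed, and 0 members had an unadjusted p under 0.05 in either direction (1.68% and 1.72% of genes). DESeq2 called 0, 0, 1, 0, 2 and 0 members in these comparisons, in the order given, where it called 1.03%, 2.99%, 0.0616%, 0.766%, 9.92% and 0.00684% of genes. The median log2 fold change of the 7 members was 0.05, 0.22, -0.89, -0.42 and -0.85 in the comparisons of 2 groups, in the same order, beside 0.01, -0.03, 0.01, -0.03 and -0.01 over all tested genes.

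Most other complement genes had counts at or near 0. Reads shared with an overlapping gene may be missing from such counts. Of 46 further complement genes listed, 45 had an identifier, 23 were tested, 12 reached 5 CPM on average, 31 averaged under 1 CPM and 10 were at 0 in every library. The last group held the soluble factors Cfd, Cfi and C6. The most abundant were Itgb2 and Itgam, the chains of complement receptor 3, at 576 and 254 CPM per kb over all libraries, Calr, the gene of calreticulin, which can bind C1q, at 228, and Cd93, a surface glycoprotein once described as a C1q receptor, at 48.5. Of the 23, 1 was called, Cd93 in hypoxia-lactate against normoxia-NaCl (-1.18 ± 0.26, edgeR adjusted p = 0.0431), where 1.61% of all genes were called. It had 216, 248 and 111 CPM in hypoxia-lactate, 273, 331 and 256 CPM in hypoxia-NaCl, 368, 380 and 401 CPM in normoxia-lactate, and 379, 491 and 431 CPM in normoxia-NaCl. Hypoxia-lactate and hypoxia-NaCl thus lay below both normoxia groups in every library, a separation whose share over all genes was not counted. The Cd93 call held without hypoxia-lactate 3 (-0.90 ± 0.18, edgeR adjusted p = 0.0105).

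Without hypoxia-lactate 3, where 1.79% of all genes were called for hypoxia without lactate, a second C5a receptor and a C1 protease gene were also called. C5ar2 had 20.7, 28.2 and 9.85 CPM in hypoxia-lactate, 21.5, 22.9 and 29.3 CPM in hypoxia-NaCl, 13.6 to 17.9 CPM in normoxia-lactate, and 5.71, 13.3 and 11.7 CPM in normoxia-NaCl. It rose in low oxygen without lactate by 1.25 ± 0.27 (edgeR adjusted p = 0.0351), the comparison in which C5ar1 was also higher in every library. C1ra, which encodes a protease that C1q activates, had 1.71, 1.93 and 1.42 CPM in hypoxia-NaCl, against 5.12, 4.53 and 4.36 CPM in normoxia-NaCl, and fell, with a log2 fold change of -1.47 ± 0.25 (adjusted p = 0.0101). With all libraries neither passed, at 1.26 ± 0.39 for C5ar2 (adjusted p = 0.460) and -1.47 ± 0.50 for C1ra (adjusted p = 0.532). C1qbp, the gene of a protein that binds the globular heads of C1q, was called lower without hypoxia-lactate 3 for low oxygen averaged over both media (-0.46 ± 0.13, adjusted p = 0.0462), where 7.59% of all genes were called.

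Genes of macrophages that take up dying cells, a process in which C1q takes part, were read beside it. Of 16 listed genes of macrophage regulation and the clearance of apoptotic cells, 15 were tested, and in hypoxia-lactate against normoxia-NaCl 0 rose and 1 fell: Gas6, the bridging ligand of the receptor MERTK, with a log2 fold change of -1.02 ± 0.19 (edgeR adjusted p = 0.0204). The same comparison called 171 of all 14616 tested genes higher and 64 lower. The list's median log2 fold change there was -0.05, beside -0.01 over all tested genes. Without hypoxia-lactate 3 it was -0.58, beside -0.01, and 4 fell in a fit that called 3.26% of all genes lower: Mertk (-2.08 ± 0.32), Gas6 (-1.02 ± 0.19), Nr1h3, the gene of the sterol sensor LXR alpha (-0.73 ± 0.17), and Maf (-0.99 ± 0.27), at adjusted p of 0.00314 to 0.0433. In the other comparisons of 2 groups, 0 of the 15 were called with all libraries.

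Inputs of NF-kB and interferon, which can raise C3 and Cfb transcription, were also read. Of 17 genes of NF-kB and interferon signalling, 15 were tested, and in hypoxia-lactate against normoxia-NaCl 2 rose and 0 fell. The same comparison called 171 of all 14616 tested genes higher and 64 lower. Il1b, the gene of interleukin 1 beta, was low and rose by 2.88 ± 0.46 (edgeR adjusted p = 0.00887), with 5.44, 7.13 and 4.09 CPM in hypoxia-lactate against 0.823, 0.816 and 0.626 CPM in normoxia-NaCl. Tnfaip3, a feedback inhibitor of NF-kB, rose by 1.12 ± 0.24 (adjusted p = 0.0381). The list's median log2 fold change was 0.09, beside -0.01 over all tested genes, and in the other comparisons of 2 groups 0 of the 15 were called with all libraries. Without hypoxia-lactate 3 the median was -0.03, beside -0.01, and 2 rose and 1 fell. That fit called 543 of its 15088 genes higher and 492 lower. The gene that fell was Irf7, an interferon-induced transcription factor gene, with a log2 fold change of -1.79 ± 0.30 (adjusted p = 0.00525). Irf7 had 3.75, 2.89 and 6.29 CPM in hypoxia-lactate libraries 1, 2 and 3 against 13.1, 13.1 and 8.53 CPM in normoxia-NaCl. In the same fit Il1b and Tnfaip3 also rose in hypoxia without lactate (1.95 ± 0.36 and 0.83 ± 0.18, adjusted p of 0.0167 and 0.0378) and in hypoxia with lactate (1.88 ± 0.37 and 0.93 ± 0.20, adjusted p of 0.0338 and 0.0473), where 1.79% and 0.862% of all genes were called.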

How the data were processed

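Counts of reads per Ensembl gene were deposited by the authors as 1 table, 1 column per library. Per the submitters' processing notes, BWA, HTSeq and the mm9 build were used, and per the labels' protocols polyadenylated RNA was read on an Ion Proton instrument. Tool versions, gene models used and handling of strand: not given in the sources used here. Counts of overlapping genes are thus uncertain. The table's 5 counters that name no gene (31.7% to 37.4% of all reads) were left out.

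Gene identifiers were looked up in GENCODE (build GRCm38, not the counting build) for symbols, exon lengths and overlaps, and 32897 had a symbol. Members and gene lists were chosen with earlier results of these data known. The 4 group means were fitted together over 12 libraries and compared by contrasts in edgeR 4.0.16 (TMM, filterByExpr, quasi-likelihood F test) under R 4.3.3, adjusted by Benjamini-Hochberg over 14616 genes at 0.05. The fit was also tried on simulated counts with a spread near that of the fit without hypoxia-lactate 3. That spread is smaller than in the main fit, so the trial does not cover the main fit. SE was taken as the size of the log2 fold change divided by the root of F. CPM is TMM-scaled. A chi-square over its degrees of freedom was at least 39.3 between libraries of a group, more than counting noise alone gives. It cannot tell whether libraries came from the same RNA or the same mouse. The text names all members, list genes past the threshold (at most 4 per comparison), the most abundant, and the 3 genes nearest to a member by root mean square difference of centred log2(CPM + 0.5). Nearest genes lie below the median of all genes by selection. Some items that this rule or the lists would name are not reported here. Same-numbered libraries deviated together in hypoxia without lactate (correlations of 0.149 to 0.380, all above the limit of 0.1), so the numbers were taken to pair them there. In each of the other comparisons the lowest correlation was under that limit (-0.07 to 0.05), although the highest was 0.116 to 0.358. Whether the numbers also pair some libraries there is not settled by these values. Alternatives used RLE and upper-quartile factors, other filters, DESeq2 1.42.0, limma 3.58.1 voom with and without quality weights, a replicate block, only the groups compared, and leaving out libraries. Averaged contrasts were added after seeing the data.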

Additional observations from a re-analysis of the deposited data

How the results depend on the processing

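Of 28 log2 fold changes followed through 23 alternative settings, 639 alternative values were computed: 572 kept their direction and side of the threshold, 36 passed it newly, 11 no longer passed and 20 reversed, and the cause was not tested. Counts of members called that moved are given with the share of all genes called by the same fit. DESeq2 gave 1 for lactate in normoxia (0.0616%), 2 for hypoxia-lactate against normoxia-NaCl (9.92%) and 1 for lactate averaged over oxygen (0.705%). Quality weights gave 1 for hypoxia without lactate (3.59%), 1 for hypoxia with lactate (5.04%), 1 for lactate in normoxia (0.0753%), 5 for hypoxia-lactate against normoxia-NaCl (7.38%), 5 for averaged hypoxia (15.1%) and 2 for averaged lactate (1.18%). No filter gave 1 for hypoxia-lactate against normoxia-NaCl (1.42%) and 1 for averaged lactate (0.032%). Upper-quartile scaling gave 0 for averaged hypoxia (1.16%). The fit lacking both hypoxia-lactate 3 and normoxia-NaCl 1 gave 3 for hypoxia-lactate against normoxia-NaCl (5.98%) and 2 for averaged hypoxia (8.94%). Leaving out 1 library gave 0 to 3 for hypoxia-lactate against normoxia-NaCl (0.452% to 6.86%), 0 to 1 for averaged hypoxia (0.546% to 7.59%) and 0 to 1 for averaged lactate (0% to 0.305%).

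The replicate block alone changed no call among the members. With hypoxia-lactate 3 also left out, the replicate block gave 1 for hypoxia without lactate (5.08%), 1 for lactate in normoxia (0.285%), 5 for hypoxia-lactate against normoxia-NaCl (14.0%), 4 for averaged hypoxia (14.7%) and 4 for averaged lactate (1.7%), of which only the first comparison met the limit for paired libraries.

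For hypoxia with lactate, C1qa (0.17) reversed to -0.18 under upper-quartile scaling, -0.71 with limma-voom, -1.43 with quality weights, -0.44 with the replicate block, -1.48 without hypoxia-lactate 3 and normoxia-NaCl 1, and -1.35 with the replicate block and hypoxia-lactate 3 left out. C1qc (0.06) reversed to -0.22, -0.23, -0.76, -0.19, -0.77 and -0.65 under the same settings and to -0.0191 at a mean of at least 5 CPM. Upper-quartile scaling moved the median of all genes by -0.13 there. Leaving out 1 library gave -1.48 to 0.64 for C1qa, -1.09 to 0.11 for C1qb and -0.77 to 0.41 for C1qc, and for lactate in hypoxia -2.07 to 0.20 for C1qa and -1.24 to 0.0242 for C1qc. Groups of 3 and the spread added by hypoxia-lactate 3 limit what the fit over all genes can call, and Cfb is too shallow to compare.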
